A study of Mus musculus with 10 samples.

Results

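The sialic acid binding Siglec receptors, the SIRP alpha receptor and the SIRP alpha ligand CD47 were examined in 10 CT26 tumors. The set held 9 genes, chosen by gene name from the 36009 genes of the count table: Siglec1, Siglece, Siglecf, Siglecg, Siglech, Cd33, Cd22, Sirpa and Cd47. All 9 were among the 16041 genes with enough counts to be tested. Each library was polyA RNA from a subcutaneous tumor of CT26, a transplanted mouse colorectal carcinoma line, in a female wild-type BALB/c mouse. All tumors were untreated when they were removed at surgery. Hydrogel loaded with poly(I:C), a double-stranded RNA mimic, was then laid on the tumor left in place, and the mouse was followed. In 6 mice the residual tumor regressed completely (responders), and in 4 its growth was not delayed (non-responders). The comparison asked which genes already differed in the resected tissue, before any therapy. Estimated counts totalled 29065126 to 38042544 per responder and 23374649 to 32986456 per non-responder.

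Siglecs are surface lectins that recognize sialic acid, the sugar that caps most cell surface glycans. Several, among them Siglec-E, Siglec-F, Siglec-G and CD22, carry inhibitory motifs in their tails that recruit the phosphatases SHP-1 (Ptpn6) and SHP-2 (Ptpn11) and dampen activating signals. SIRP alpha works through the same phosphatases when it binds CD47, which almost all cells display and which restrains phagocytosis by macrophages. Siglec-1 and Siglec-H lack such motifs. Siglec-1 is an adhesion receptor of macrophages, and Siglec-H signals through the adaptor DAP12 (Tyrobp). The set therefore holds inhibitory receptors, receptors that are not inhibitory by themselves, and a ligand.

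Sirpa, Siglece, Siglec1 and Cd47 were higher in the tumors of responders, before treatment. Siglece differed most, by 2.41-fold, followed by Sirpa at 1.63-fold, Siglec1 at 1.43-fold and Cd47 at 1.14-fold. The other 5 genes, Cd22, Cd33, Siglech, Siglecg and Siglecf, did not pass an adjusted p of 0.05, and none of the 9 was called lower. By edgeR's quasi-likelihood test with Benjamini-Hochberg adjustment over all genes, 4 of 9 were called higher, where 4.71% of all genes tested were called higher and 3.35% lower. The median log2 fold change was 0.23 over the 9 genes and -0.0086 over all genes tested. Every responder was above every non-responder for Siglece, Sirpa, Cd47 and Cd22, an ordering that held for 5.84% of all genes tested. The number of genes past the adjusted threshold depended on single tumors. The log2 fold changes of the called genes kept their direction when any 1 tumor was left out. They were 1.12 to 1.43 for Siglece, 0.58 to 0.79 for Sirpa, 0.43 to 0.60 for Siglec1 and 0.16 to 0.21 for Cd47. Without responder 2, responder 3, non-responder 1, non-responder 3 or non-responder 4, edgeR called 0 of the 9, with 5 to 7 at an unadjusted p under 0.05. Without responder 1 or responder 5 it called 1. In each of these refits calls were lost over all genes tested, and not only among the 9. EdgeR called 1293 of all genes with all tumors and 0 without non-responder 4. Calls over all genes rose to 1897 without non-responder 2, when 3 of the 9 were called. With all tumors, 5 of the 9 had an unadjusted p under 0.05, as did 29.1% of all genes tested.

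**Figure D1:**
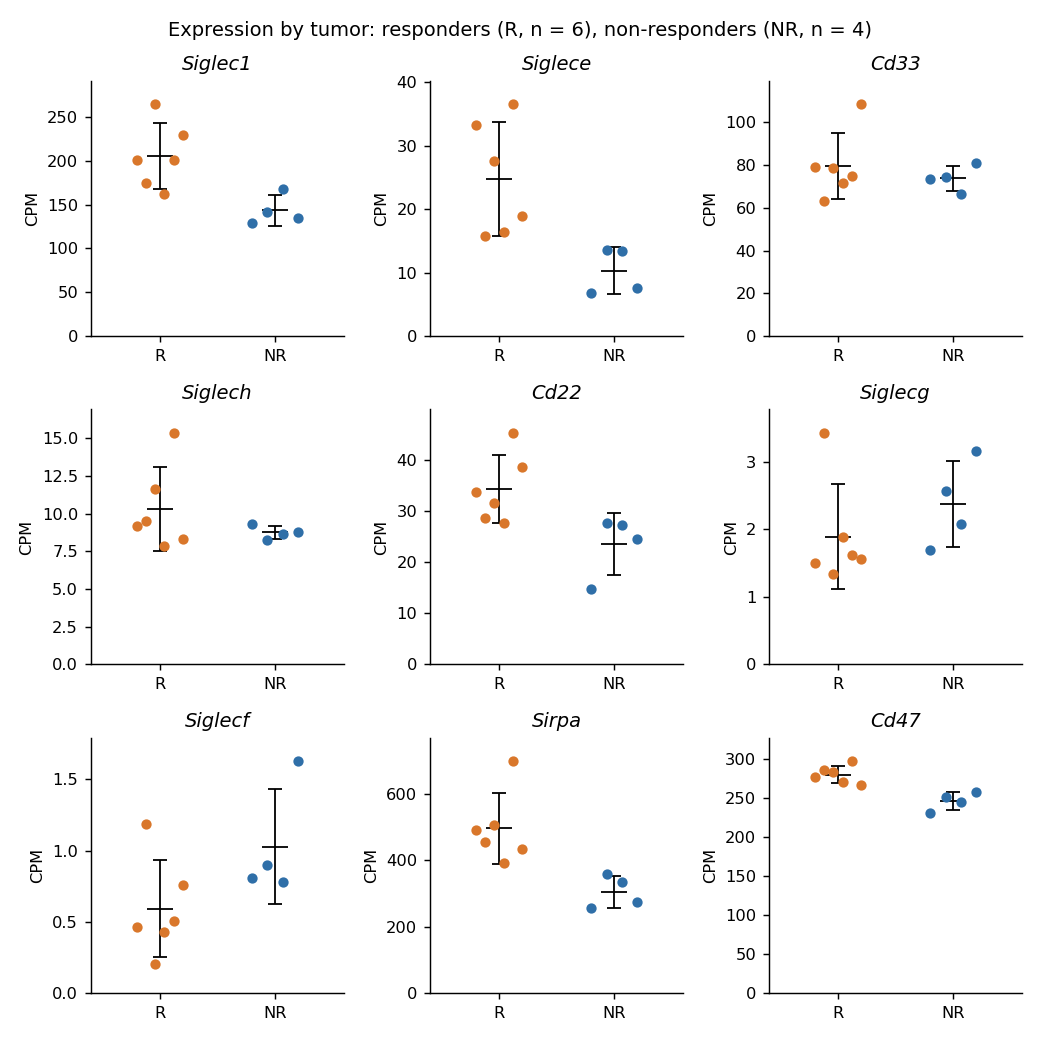
Expression in CPM (a gene's count scaled to the size of its library, y axis, from 0) of the 9 genes in each tumor, with responders (R) on the left and non-responders (NR) on the right of each panel. Points are tumors, and the bar with whiskers is the mean ± SD. Siglece, Sirpa and Cd47 are higher in each of the 6 responders than in any of the 4 non-responders.

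The genes spanned a wide range of expression. Per kilobase of exon, Sirpa was the most abundant, with a mean over the 10 tumors of 85.6 CPM per kb (CPM being the count scaled to the size of the library), and Cd47 followed at 42.5 CPM per kb. Siglec1 was the leading Siglec at 25.3 CPM per kb. Siglece (10.3 CPM per kb) and Cd33 (9.93 CPM per kb) could not be ordered, since Siglece was the higher of the pair in only 4 of 10 tumors. Below them in mean level came Cd22 at 5.94 CPM per kb and Siglech at 2.86 CPM per kb. Siglecg and Siglecf were the lowest, at 0.434 and 0.275 CPM per kb. Siglecf, with 6 to 54 counts per tumor, was near the lower end of what these libraries could measure. Siglecg had 39 to 110 counts per tumor. Apart from Siglece and Cd33, each gene exceeded the next in the order in 10 of 10 tumors. Siglece and Cd22, which are not neighbours in that order, were not compared tumor by tumor, and their ranges overlapped (lowest Siglece 3.69, highest Cd22 8.98 CPM per kb). The ranges over tumors of neighbouring genes overlapped except for Sirpa over Cd47 and Siglech over Siglecg. Exon length was taken as the union of all annotated exons of a gene, which can exceed the transcript in use.

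**Figure D2:**
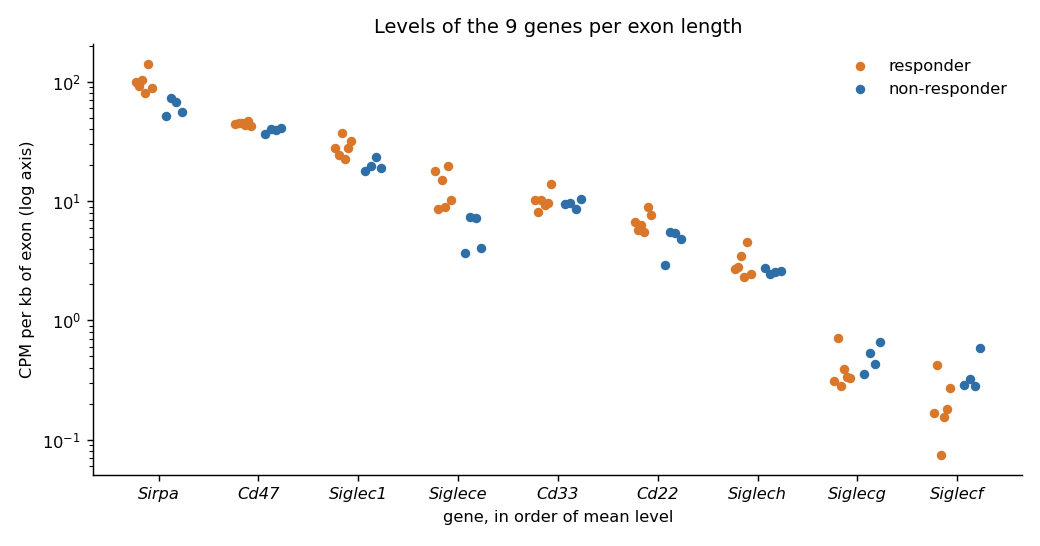
Level of each gene in CPM per kilobase of exon (y axis, log scale) in each tumor, in order of the mean. Orange points are the 6 responders and blue points the 4 non-responders. Sirpa is above Cd47 in every tumor, and Siglecg and Siglecf are below 1 CPM per kb throughout.

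Sirpa (ENSMUSG00000037902, GRCm38 chromosome 2, 129592835 to 129632228, plus strand) encodes SIRP alpha, which macrophages, dendritic cells and neutrophils carry. In responders the lowest, median and highest values were 393, 473 and 699.5 CPM. Non-responders 1 to 4 were at 256, 359, 333 and 274 CPM. Responder 5 was the highest tumor, and the groups did not overlap. The means were 497 ± 107 CPM (SD, n = 6) in responders and 306 ± 48.6 CPM (SD, n = 4) in non-responders. The log2 fold change was 0.70 (SE 0.15, 95% interval 0.36 to 1.04, edgeR adjusted p = 0.0318).

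Its ligand gene Cd47 (ENSMUSG00000055447, chromosome 16, 49800533 to 49915010, plus strand) varied little between tumors. Responders ranged from 267 to 298 CPM with a median of 280.0 CPM. Values in non-responders 1 to 4 were 231, 251, 245 and 258 CPM. All responders were thus above all non-responders, although the lowest responder and the highest non-responder were close. The difference was small, with 280.2 ± 11.0 CPM (SD, n = 6) against 246 ± 11.3 CPM (SD, n = 4) and a log2 fold change of 0.19 (SE 0.05, 95% interval 0.09 to 0.28, edgeR adjusted p = 0.0381).

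The receptor rose more than its ligand. The Sirpa to Cd47 ratio, on a per-kilobase basis, was 1.85 to 3.005 in responders and 1.36 to 1.83 in non-responders. As log2 CPM of Sirpa minus log2 CPM of Cd47, the difference between the group means was 0.50 (0.80 ± 0.24, SD, n = 6, against 0.30 ± 0.21, SD, n = 4), higher in 6 of 6 responders. The exact two-sided permutation p was 0.00476, the smallest that the 210 splits of these tumors can give. It is one of 10 relative values tested, none of which was adjusted for their number.

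Siglece (ENSMUSG00000030474, chromosome 7, 43651070 to 43660161, minus strand) encodes Siglec-E, an inhibitory receptor of mouse macrophages, monocytes and neutrophils. Its lowest, median and highest values in responders were 15.8, 23.3 and 36.5 CPM. In non-responders 1 to 4 it was at 6.82, 13.6, 13.4 and 7.48 CPM. The groups did not overlap, and 3 responders lay between 15.8 and 18.9 CPM while the other 3 lay between 27.6 and 36.5 CPM. The means of 24.7 ± 8.96 CPM (SD, n = 6) and 10.3 ± 3.66 CPM (SD, n = 4) gave a log2 fold change of 1.27 (SE 0.30, 95% interval 0.60 to 1.93, edgeR adjusted p = 0.0361). With limma-voom in place of edgeR, the adjusted p was 0.0505.

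Siglec1 (ENSMUSG00000027322, chromosome 2, 131069220 to 131086765, minus strand) encodes sialoadhesin or CD169, a macrophage receptor for sialylated cells and particles whose expression is known to respond to interferon. Responders had a lowest value of 162, a median of 200.4 and a highest value of 265 CPM. The non-responders 1 to 4 were at 129, 142, 168 and 135 CPM. Only responder 4 fell within the range of non-responders, and 5 of 6 responders were above all of them. The means were 205 ± 37.5 CPM (SD, n = 6) and 143 ± 17.3 CPM (SD, n = 4), and the log2 fold change was 0.52 (SE 0.13, 95% interval 0.23 to 0.80, edgeR adjusted p = 0.0403). Genes of the interferon response list, among them Ifit1, Mx1 and Isg15, summed to 380 to 516 CPM in responders and 174 to 415 CPM in non-responders. By edgeR 0 of those 8 genes were called, with 4 at an unadjusted p under 0.05 (29.1% of all genes tested), and DESeq2 called 3, where it called 2573 genes in all. Their part in the Siglec1 difference was not tested.

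Cd22 (ENSMUSG00000030577, chromosome 7, 30865402 to 30880342, minus strand) encodes an inhibitory receptor best known from B cells. The lowest, median and highest responder values were 27.6, 32.6 and 45.3 CPM, and non-responders 1 to 4 were at 14.7, 27.6, 27.2 and 24.5 CPM. Responder 4 and non-responder 2 were equal to the precision given, so the separation of the groups rested on a gap smaller than rounding. The log2 fold change was 0.54 (SE 0.19, 95% interval 0.14 to 0.95), with an edgeR adjusted p of 0.0836. DESeq2 gave an adjusted p of 0.0261. In all 10 tumors Cd22 exceeded the summed CPM of 9 B cell genes, by 2.31 to 3.84 times. Those genes summed to 9.34 to 15.4 CPM in responders and 6.34 to 9.52 CPM in non-responders. The annotation places 479 exon bases of Cd22 opposite the antisense gene Gm29439, so reads from there cannot be assigned to a strand without a stranded count, and the strand setting is not given in the sources used here.

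The remaining genes did not separate the groups. Cd33 (ENSMUSG00000004609, chromosome 7, 43524216 to 43544428, minus strand), the namesake of the CD33-related Siglecs and a myeloid gene, ranged from 63.3 to 109 CPM in responders with a median of 76.8 CPM. Non-responders 1 to 4 were at 73.6, 74.5, 66.4 and 80.9 CPM, within the responders' range. The log2 fold change was 0.10 (SE 0.12, 95% interval -0.17 to 0.38, edgeR adjusted p = 0.619), so an increase of the size seen for Siglece lay outside the interval.

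Siglech (ENSMUSG00000051504, chromosome 7, 55768178 to 55778925, plus strand), a marker of plasmacytoid dendritic cells, had responder values of 7.82 CPM at the lowest, 9.34 CPM at the median and 15.4 CPM at the highest. Non-responders 1 to 4 were closely spaced at 9.29, 8.25, 8.67 and 8.81 CPM. Responders 2, 3 and 5 were above all non-responders and the other 3 were within or below their range, with a log2 fold change of 0.23 (SE 0.17, 95% interval -0.14 to 0.61, edgeR adjusted p = 0.394).

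Siglecg (ENSMUSG00000030468, chromosome 7, 43408204 to 43418358, plus strand), known from B-1 cells and as a receptor for CD24, was lower in level than any of these. Its responder values were 1.34, 1.59 and 3.43 CPM (lowest, median, highest), and non-responders 1 to 4 had 1.70, 2.58, 2.08 and 3.17 CPM. Responder 2 was the highest tumor, while 4 of the other 5 responders lay below all non-responders. The log2 fold change of -0.34 (SE 0.28, 95% interval -0.94 to 0.26, edgeR adjusted p = 0.442) did not pass the threshold.

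Siglecf (ENSMUSG00000039013, chromosome 7, 43351341 to 43359531, plus strand), the eosinophil and alveolar macrophage Siglec, rested on 6 to 54 counts per tumor. Responders were at 0.206 CPM at the lowest, 0.485 CPM at the median and 1.19 CPM at the highest, against 0.81, 0.90, 0.78 and 1.63 CPM in non-responders 1 to 4. Responder 2 was above 3 of the non-responders and the other responders were below all of them. The log2 fold change of -0.80 (SE 0.39, 95% interval -1.67 to 0.06, edgeR adjusted p = 0.203) did not pass the threshold. Without responder 2 it was -1.11 (edgeR adjusted p = 0.0888), which did not pass either.

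Upstream sequence is given for 4 genes of the set: Siglece, with the largest difference, Cd47, with the smallest called difference, and Siglecf and Cd33, which share letters and lie in the same stretch of chromosome 7, with Siglecg between them. RefSeq windows on GRCm38.p6 reach from 250 bases before to 50 bases after an annotated start, and 7 of the 9 genes had one, Siglec1 and Sirpa not being matched. The 250 bases before the start are printed, on the strand of the gene, for Siglecf at chr7:43351091-43351340 (plus), Cd33 at chr7:43533172-43533421 (minus), Siglece at chr7:43660162-43660411 (minus) and Cd47 at chr16:49855404-49855653 (plus). Capitals mark the runs shared by Siglecf and Cd33, or the GC box GGGCGG in Cd47.
Siglecf: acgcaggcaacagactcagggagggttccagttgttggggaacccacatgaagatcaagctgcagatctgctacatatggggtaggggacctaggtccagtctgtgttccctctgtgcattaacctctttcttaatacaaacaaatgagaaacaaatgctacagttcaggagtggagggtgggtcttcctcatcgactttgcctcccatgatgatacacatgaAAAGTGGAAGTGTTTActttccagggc
Cd33: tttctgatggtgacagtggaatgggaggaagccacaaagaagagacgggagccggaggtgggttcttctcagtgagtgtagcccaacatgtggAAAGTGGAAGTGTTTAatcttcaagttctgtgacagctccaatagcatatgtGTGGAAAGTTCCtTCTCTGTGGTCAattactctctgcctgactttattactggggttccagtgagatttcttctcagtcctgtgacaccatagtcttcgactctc
Siglece: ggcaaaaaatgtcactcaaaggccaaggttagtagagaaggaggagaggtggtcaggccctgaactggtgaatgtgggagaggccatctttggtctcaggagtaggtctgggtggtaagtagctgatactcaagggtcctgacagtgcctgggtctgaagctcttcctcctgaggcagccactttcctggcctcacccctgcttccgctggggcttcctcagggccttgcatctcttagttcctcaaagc
Cd47: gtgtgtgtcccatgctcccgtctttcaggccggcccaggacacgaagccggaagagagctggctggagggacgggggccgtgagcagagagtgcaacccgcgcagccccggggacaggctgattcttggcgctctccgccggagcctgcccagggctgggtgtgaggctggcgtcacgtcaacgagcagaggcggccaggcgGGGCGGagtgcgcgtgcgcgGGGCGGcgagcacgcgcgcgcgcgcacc

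The windows of Siglecf and Cd33 shared the 16 bases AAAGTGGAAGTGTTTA, starting at -27 from the start of Siglecf and at -157 from that of Cd33, which no other of the 32851 windows held. They also shared GTGGAAAGTTCC, found in these 2 windows, and TCTCTGTGGTCA, found in 4 windows of all. In Siglecf those runs lie after the start, at 24 and 37, outside the printed stretch. Both genes therefore held the ETS core GGAAGT, as did Siglech, on either strand, a motif in 23.8% of all windows. The RUNX motif TGTGGT was in the same 3 genes and in 16.8% of all windows. Despite the shared letters Cd33 was expressed far above Siglecf per kilobase, as given above. The GC box GGGCGG was found in Cd47 alone, 3 times in the window and in 35.7% of all windows. The interferon response element, searched as GAAA, any 2 bases and GAAA on both strands, was present in 3.44% of all windows. It was in none of the 9 windows, which cover 7 of the 9 genes and neither Siglec1 nor Sirpa. For a motif this rare, so few windows cannot show whether the genes lack it more than others. The 2 starts annotated for Siglecg and for Cd47 each have a window of their own, and the windows overlap.

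Macrophage and pan-leukocyte markers were higher in responders, while the markers of the other cells that carry these receptors were mostly not called. Over all genes tested, edgeR called 4.71% higher and 3.35% lower, 29.1% had an unadjusted p under 0.05, and DESeq2 called 2573 genes. The 9 macrophage genes summed to 2985 to 4446 CPM in responders and 2078 to 2819 CPM in non-responders, and 6 of the 9 were called higher by edgeR. None of the 9 was at 0. Ptprc, the pan-leukocyte gene CD45, was at 326 to 499 CPM against 181 to 307 CPM and was called higher. The 6 T cell genes summed to 116 to 280.0 CPM against 72.1 to 133 CPM, with 0 called by edgeR, 5 at an unadjusted p under 0.05 and 5 called by DESeq2. The 5 monocyte genes summed to 247 to 308 CPM against 209 to 266 CPM, with 1 called higher. EdgeR called 0 of 8 B cell genes tested (4 at an unadjusted p under 0.05, 2 called by DESeq2), 0 of 7 plasmacytoid dendritic cell genes (5 and 1) and 0 of 3 eosinophil genes (0 and 0). Conventional dendritic cell genes summed to 248.9 to 325 CPM against 121 to 277 CPM, with 1 of 6 called higher. Neutrophil genes summed to 247 to 311 CPM in responders and 309 to 423 CPM in non-responders, a sum that Mmp9 dominated. Mmp9, which macrophages also express, was at 167 ± 32.7 CPM (SD, n = 6) against 268 ± 71.9 CPM (SD, n = 4) and was the 1 gene of 6 tested that was called lower. S100a8 and S100a9 had log2 fold changes of -0.087 and -0.047 and Csf3r of 0.42, none of them called, and Ly6g, which defines mature neutrophils, had no more than 1 count. Skeletal muscle genes summed to 348 to 1122 CPM against 308 to 402 CPM, with 2 of 5 called higher. Adipocyte genes summed to 15.6 to 52.1 CPM against 8.54 to 19.2 CPM, and skin keratinocyte genes to 2.77 to 3.85 CPM against 2.69 to 8.21 CPM. The 6 epithelial genes expected of a carcinoma (Krt8, Krt18, Krt19, Epcam, Cldn4 and Cdh1) summed to only 2.96 to 8.32 CPM, so epithelial genes of the labelled carcinoma were near 0 in these libraries. In bulk tumor RNA, more cells of a type and more RNA per cell cannot be told apart.

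With the macrophage markers as a covariate, edgeR called 0 of the 9 genes, with 0 at an unadjusted p under 0.05. The log2 fold change was then 0.14 for Siglece, 0.080 for Sirpa, 0.25 for Siglec1 and 0.079 for Cd47. Ptprc as the covariate also left 0 called and 0 at an unadjusted p under 0.05. The covariates differ between the groups themselves, so group and covariate cannot be fully told apart, and 0 genes of all those tested passed in either fit.

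A direct ratio, the log2 CPM of a gene minus the mean log2 CPM of a marker list in the same tumor, was compared by exact two-sided permutation tests. Relative to macrophage markers, Siglece was higher in responders, by 0.75 (-3.59 ± 0.38, SD, n = 6, against -4.35 ± 0.36, SD, n = 4, exact permutation p = 0.0238). It was above all non-responders in 5 of 6 responders, and leaving out any tumor gave exact p from 0.0159 to 0.0357. The ratio takes a gene to change in proportion to its markers, while the covariate fit, with 0.14 for Siglece, estimates that relation. Which of these applies here was not tested. Sirpa was higher relative to the same markers by 0.19 (0.78 ± 0.12, SD, n = 6, against 0.59 ± 0.10, SD, n = 4, exact permutation p = 0.0286), in 5 of 6 responders. This depended on the denominator, with a difference of 0.074 (exact p = 0.276) relative to Ptprc, and on single tumors, with an exact p of 0.0952 without non-responder 4. The macrophage markers themselves ranged in log2 fold change from -0.13 for Mrc1 to 0.87 for Adgre1, so the ratio depends on the list. Sirpa, at 0.70, was below Adgre1, Fcgr1 (0.85) and C1qc (0.76) and above the rest of the markers. Siglec1 relative to the macrophage markers gave no difference that could be detected, 0.0096 (exact permutation p = 0.957), with values from -0.82 to -0.13 in responders, and it changed sign without responder 3, responder 6, non-responder 2 or non-responder 4. Cd33 was lower relative to them by 0.41 in the group means (-1.86 ± 0.29, SD, n = 6, against -1.45 ± 0.26, SD, n = 4), with an exact permutation p of 0.0619 and 5 of 6 responders below all non-responders. Leaving out 1 tumor moved that p between 0.00794, without responder 6, and 0.143, without non-responder 1. It was 0.0476 without non-responder 2 or non-responder 3.

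Cd47 was lower relative to Ptprc in responders by 0.43 (-0.43 ± 0.17, SD, n = 6, against 0.0033 ± 0.30, SD, n = 4, exact permutation p = 0.00952), since Ptprc differed by more than Cd47 between the groups. Siglecf relative to eosinophil markers was at 1.23 ± 0.52 (SD, n = 6) against 1.84 ± 0.075 (SD, n = 4), a difference of -0.60 (exact permutation p = 0.0476). The exact p was 0.0714 to 0.107 when any 1 tumor other than responder 2 or responder 6 was left out. That list is itself at the edge of detection, with 2.41 to 5.81 CPM in responders and 3.84 to 10.1 CPM in non-responders, Ear1 at 0 in every tumor and the defining granule genes Epx and Prg2 at no more than 2 and 6 counts. With summed marker CPM as the denominator the difference was -0.36 (exact permutation p = 0.171), and relative to Ptprc it was -1.44 (exact permutation p = 0.019). Siglecg relative to B cell markers differed by -0.75 (exact permutation p = 0.0714), and Cd22 by 0.17 (exact permutation p = 0.362). Siglech relative to plasmacytoid dendritic cell markers differed by 0.014 (exact permutation p = 0.881). Those markers summed to 300 to 339 CPM in responders and 322 to 362 CPM in non-responders, a sum set mostly by Tcf4 (209 ± 16.6 CPM, SD, n = 6, against 234 ± 6.99 CPM, SD, n = 4), while 6 of the 7 tested had a positive log2 fold change, from 0.032 for Runx2 to 0.97 for Cox6a2.

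**Figure D3:**
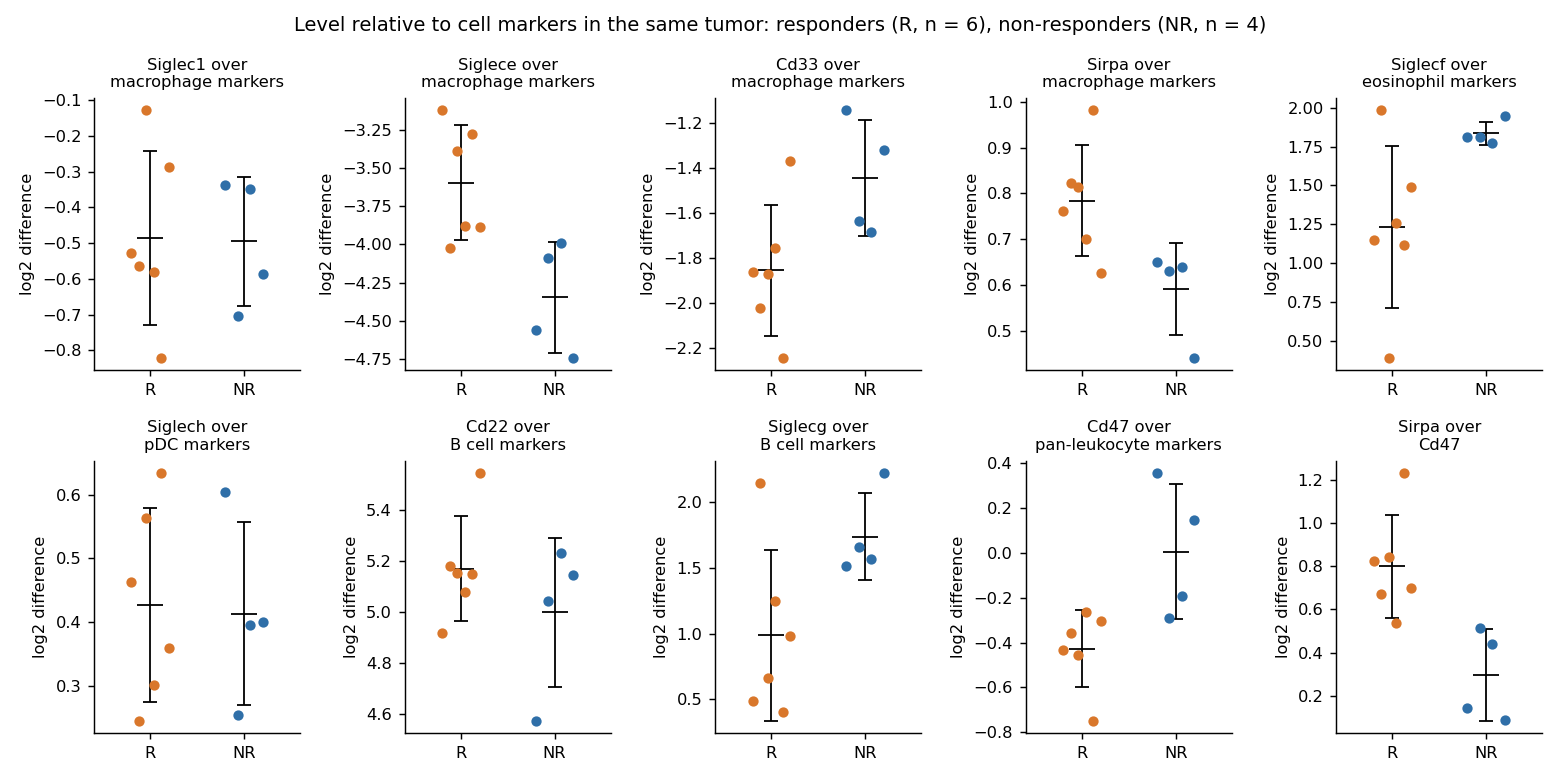
Log2 CPM of each gene minus the mean log2 CPM of the markers named in the panel title (y axis, log2 units) in each tumor, for responders (R) and non-responders (NR). Points are tumors and the bar with whiskers is the mean ± SD. Sirpa over Cd47 separates the groups, while Siglec1 over macrophage markers does not.

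Within the groups, several of the genes followed many marker lists at once, so the highest list for a gene does not single out a cell type. After each group's mean was subtracted, Sirpa correlated with the macrophage markers (Pearson r = 0.92 over 10 tumors) and with Ptprc (r = 0.93), and Cd22 with the same markers at r = 0.93, above its r of 0.70 with the B cell markers. Sirpa was also at r = 0.88 with the T cell and 0.87 with the B cell markers, and Cd22 at r = 0.81 with the T cell markers. Siglece was highest with the T cell markers (r = 0.92), near its r of 0.88 with B cell and 0.85 with macrophage markers. Siglech was at r = 0.87 with the plasmacytoid list and at r = 0.85 with skeletal muscle genes, and Siglecf at r = 0.86 with the eosinophil list. Siglec1 was nearest to the monocyte markers (r = 0.68, against 0.47 with macrophage markers), and Cd33 reached no more than r = 0.27 with any list. Among the genes themselves, Siglece and Sirpa moved together (r = 0.87), as did Siglecf and Siglecg (r = 0.80), and Cd22 and Sirpa (r = 0.74). Siglec1 and Siglecg ran opposite (r = -0.51). These values share the same 10 libraries and their depth scaling, and are given as description.

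**Figure D4:**
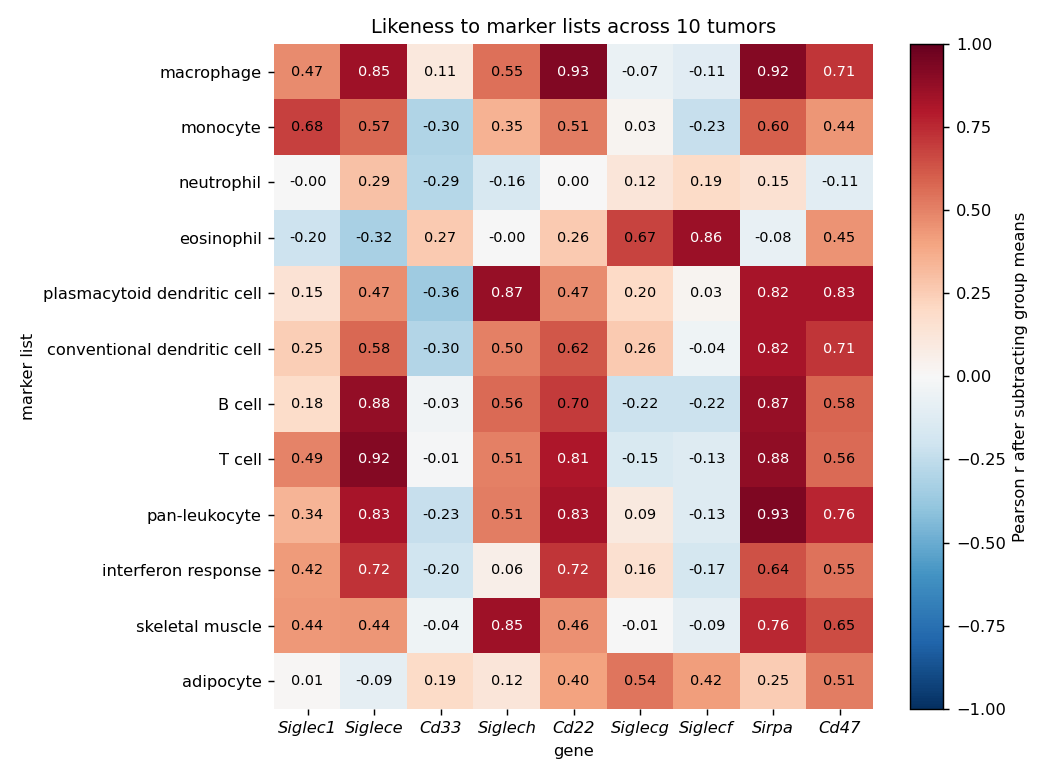
Pearson correlation across 10 tumors, after subtraction of group means, between each gene (columns) and the mean log2 CPM of each marker list (vertical axis), with red for positive and blue for negative values. Sirpa and Cd22 are at 0.92 and 0.93 with macrophage markers, while Cd33 is at 0.11.

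The genes whose pattern was most like each member, among 13263 named genes of at least 1 CPM on average (13264 for Siglecf), were found in the same way. For Sirpa they were Clec4a1 (r = 0.99), Syk (r = 0.97) and Cd53 (r = 0.97). For Siglece they were Calr (r = 0.98), Itgad (r = 0.97) and Cxcr6 (r = 0.96). Cd22 was most like Cd38, Arhgap25 and Cd4 (each r = 0.97). Cd47 was most like Ctsz, Arhgap9 and Slc25a28 (each r = 0.95). The nearest to Siglec1 were Zfp652, Hic2 and Arhgef10 (r = 0.90, 0.88 and 0.88), and to Siglech Ndst2 and Lrrc8c (r = 0.97 and 0.95). Siglecf was most like Alox15, Cyp4f18 and Mrps24 (r = 0.93, 0.92 and 0.91), Siglecg like Med28, Dctn6 and Cacnb3 (r = 0.96, 0.94 and 0.92), and Cd33 like Thap2, Pxk and D2hgdh (r = 0.95, 0.94 and 0.93). The highest of so many correlations over 10 tumors are high by selection.

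Siglece also took a larger part of the Siglec expression in responders. Of the per-kilobase levels of the 7 Siglec genes summed, Siglece made up 20.9% ± 5.31 (SD, n = 6) in responders and 12.7% ± 3.40 (SD, n = 4) in non-responders. Cd33 made up 16.4% ± 2.84 against 22.2% ± 3.49. Siglec1 held about the same part in both groups, 45.9% ± 4.34 and 46.4% ± 2.56, as did Cd22, 10.9% ± 1.33 and 10.6% ± 1.95. These shares sum to the whole, so a rise of one lowers the others.

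The other Siglec and SIRP genes of the mouse were Mag, a Siglec of myelin, Siglec15 and the SIRP beta genes Sirpb1a, Sirpb1b and Sirpb1c, whose products pair with DAP12. Of the 5, 4 had enough counts to be tested and 3 were called higher by edgeR, with 0 lower, against 4.71% and 3.35% of all genes tested. Sirpb1c had a log2 fold change of 0.96 (edgeR adjusted p = 0.0401), Sirpb1a of 0.96 (edgeR adjusted p = 0.0389) and Mag of 0.95 (edgeR adjusted p = 0.0299). Sirpb1b, at 2.81 ± 0.958 CPM (SD, n = 6) against 1.64 ± 0.301 CPM (SD, n = 4), had an edgeR adjusted p of 0.0644. The SIRP beta genes are close copies, and estimated counts may be split between them. BALB/c reads were assigned to a reference of another strain, and the extracellular part of SIRP alpha is known to differ between strains.

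Several genes of the signaling machinery were higher in responders. Of 16 phosphatases, kinases and adaptors, 8 were called higher and 1 lower, against 4.71% and 3.35% of all genes tested. Their median log2 fold change was 0.42. Ptpn6, which encodes SHP-1, was at 147 ± 16.6 CPM (SD, n = 6) against 102 ± 22.6 CPM (SD, n = 4), a log2 fold change of 0.54 (edgeR adjusted p = 0.0408). Its relative Ptpn11, for SHP-2, did not pass, with -0.068 (edgeR adjusted p = 0.284). The lipid phosphatase gene Inpp5d (SHIP-1) was higher by 0.38 (edgeR adjusted p = 0.0401). Among kinases, which phosphorylate the receptor tails or act on the paired activating receptors, Syk was higher by 0.51 (edgeR adjusted p = 0.0451) and Lyn by 0.46 (edgeR adjusted p = 0.0391). Src fell by 0.20 (edgeR adjusted p = 0.0445). Adaptor genes called were Fyb (log2 fold change 0.71), Tyrobp (0.54), which encodes DAP12, and Grb2 (0.28), with edgeR adjusted p of 0.0266, 0.0311 and 0.0263.

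The genes that make, attach and remove sialic acid were not called. Of 27 listed, 24 were tested and 0 passed by edgeR, with 9 at an unadjusted p under 0.05 (29.1% of all genes tested). DESeq2 called 2, where it called 2573 genes in all, and limma-voom called 0. The median log2 fold change was -0.017. Cmas, which activates sialic acid, was at 32.9 ± 1.36 CPM (SD, n = 6) against 37.6 ± 3.22 CPM (SD, n = 4), and all responders were below all non-responders (log2 fold change -0.19, edgeR adjusted p = 0.0638). St6galnac4, a sialyltransferase, had a log2 fold change of 0.29 (edgeR adjusted p = 0.0722).

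Ligands and other CD47 partners also did not pass, with 0 of 10 tested called by edgeR and 3 at an unadjusted p under 0.05, near the 29.1% of all genes tested. DESeq2 called 3, where it called 2573 genes in all, and limma-voom called 0. The smallest p-values were those of Selplg, the sialylated selectin ligand PSGL-1, at 65.2 ± 15.6 CPM (SD, n = 6) against 42.6 ± 9.34 CPM (SD, n = 4, log2 fold change 0.61, edgeR adjusted p = 0.0597), and Cd52, a small sialylated leukocyte protein, at 85.5 ± 18.9 CPM (SD, n = 6) against 47.1 ± 20.4 CPM (SD, n = 4, log2 fold change 0.86, edgeR adjusted p = 0.0693).

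Other inhibitory receptors of myeloid cells were higher in responders. Of 7 such genes, 5 were called higher by edgeR and 0 lower, against 4.71% and 3.35% of all genes tested. Their median log2 fold change was 0.61. Pirb, the receptor for MHC class I, was at 85.9 ± 16.8 CPM (SD, n = 6) against 55.0 ± 7.11 CPM (SD, n = 4), a log2 fold change of 0.64 (edgeR adjusted p = 0.0297). Lair1, a collagen receptor, had 0.68 (edgeR adjusted p = 0.0372), Pilra 0.61 (edgeR adjusted p = 0.0453), Lilr4b 0.63 (edgeR adjusted p = 0.0328) and Lilrb4a 0.49 (edgeR adjusted p = 0.0425). Lilrb4a and Lilr4b share exon bases with the annotated gene Gm49339 on the same strand, 1846 and 122 of them, so their counts are uncertain. Cd200r1 and its ligand gene Cd200 did not pass. In all, 17 of the genes of these lists were called, and 0 with either covariate, when 2 (macrophage markers) and 4 (Ptprc) had an unadjusted p under 0.05.

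**Figure D5:**
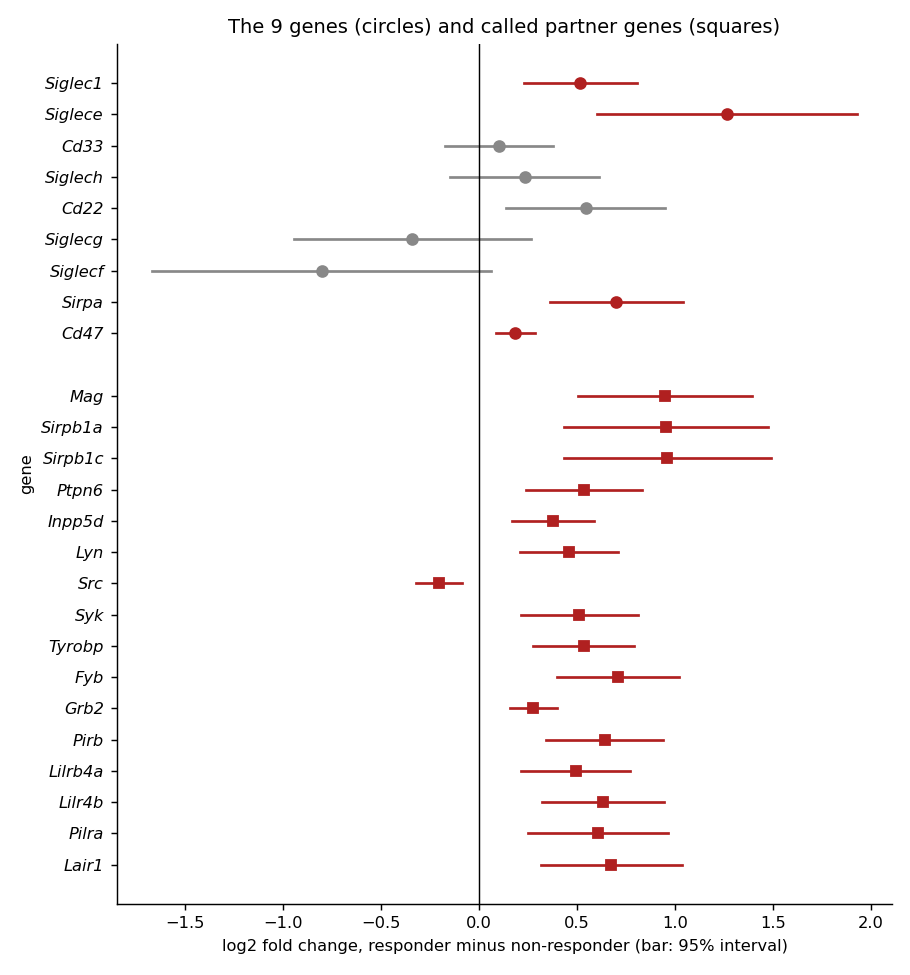
Log2 fold change of responders over non-responders (x axis) with its 95% interval from the edgeR fit. Circles are the 9 genes and squares the partner genes reported here that were called at an adjusted p under 0.05, with red for called genes and grey for those that were not. Siglece has the largest fold change of the 9 and Cd47 the narrowest interval, and Src is the only called gene drawn below 0.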

How the data were processed

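PolyA RNA of 10 tumors was analyzed. The authors estimated transcript abundance with kallisto on GRCm38 and deposited expected counts (estimated counts) per gene, fractional for 45.1% of values and not scaled to depth. The annotation release and strand setting are not given in the sources used here.

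Counts were rounded and fitted with edgeR 4.0.16 under R 4.3.3. The filter was filterByExpr (minimum count 10, minimum total count 15), the scaling TMM, and the test two-sided quasi-likelihood (glmQLFit, glmQLFTest). P-values were adjusted by Benjamini-Hochberg over 16041 genes, with a threshold of 0.05. CPM used the TMM-scaled totals, and log2 CPM a prior count of 2. No batch was given in the labels, tumors were numbered in accession order, and p-values measure the spread between these tumors. Total counts of 23374649 to 38042544 per tumor set the precision for genes with few counts, such as Siglecf. Relative values were compared by exact permutation over 210 splits. The scripts were tested on simulated data. Gene coordinates and exon lengths came from GENCODE M21.

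All 9 genes were named. From each pathway list, genes with an adjusted p under 0.05 were named, or, where fewer than 2 passed, the 2 with the smallest p. For likeness, the 3 highest correlations were named, and markers where a result turned on them. Sirpb1b, Ptpn11, Siglec15, Cd200r1 and Cd200 were added after their values were seen. A few genes that these rules name are not reported here, though counts over lists include them. The genes, lists and tests were chosen with earlier results of these data known.

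Alternatives were DESeq2 1.42.0, limma-voom (limma 3.58.1), RLE size factors, other filters on low counts, a threshold of 0.25, marker covariates, other denominators, a prior count of 0.5 and leaving out each tumor.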

Additional observations from a re-analysis of the deposited data

Results flagged for a closer look

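In 38 groups of 4 or 6 tumors, the most extreme tumor was compared with the others by Dixon's ratio, the gap to its nearest neighbour over the whole range. About 1.9 such groups would pass by chance, and 2 did. For Siglecg, responder 2 stood apart with a ratio of 0.644, at a log2 CPM of 1.81 where the other responders had 0.49 to 0.96. For Sirpa relative to macrophage markers, non-responder 4 stood apart with a ratio of 0.907, at 0.44 where the other non-responders had 0.63 to 0.65. The cause of either was not tested.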

How the results depend on the processing

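Of 153 refitted fold changes of the 9 genes, 109 kept their direction and their side of the threshold, as did 95 of 126 recomputed relative values. The called genes kept their call less often, in 6 of 17 refits for Siglec1, 7 for Siglece, 10 for Sirpa and 7 for Cd47. For the genes not called, 14 to 17 of 17 refits were unchanged. With RLE size factors and with the CPM filter, the number of the 9 genes called stayed at 4. DESeq2 called Cd22 (0.55, adjusted p = 0.0261), limma-voom did not call Siglece (1.27, adjusted p = 0.0505), and without a filter on low counts Cd47 was not called (0.19, adjusted p = 0.0524). The genes called among all tested numbered 1293 with edgeR, 2573 with DESeq2 and 0 with either covariate.

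With the macrophage marker covariate, 0 of the 9 genes and 0 pathway genes were called, and the log2 fold changes were 0.25 for Siglec1, 0.14 for Siglece, -0.22 for Siglech, -0.20 for Cd22, 0.080 for Sirpa and 0.079 for Cd47. With the Ptprc covariate the same counts were 0 and 0, and the log2 fold changes were 0.35, 0.29, -0.17, -0.041, 0.13 and 0.080 in that order. At an adjusted p under 0.25, 38 pathway genes and 6 of the 9 genes were called, where 6043 of all 16041 genes tested passed.

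Leaving out 1 tumor at a time, edgeR called 0 to 4 of the 9 genes, 0 to 23 pathway genes and 0 to 1897 of all genes tested. Fold changes were then 0.43 to 0.60 for Siglec1, 1.12 to 1.43 for Siglece, -0.0061 to 0.16 for Cd33 and -1.11 to -0.47 for Siglecf. They were -0.59 to -0.17 for Siglecg, 0.084 to 0.31 for Siglech, 0.58 to 0.79 for Sirpa and 0.16 to 0.21 for Cd47. The relative values ran from -0.062 to 0.077 for Siglec1, -0.51 to -0.31 for Cd33, 0.14 to 0.23 for Sirpa, -0.75 to -0.44 for Siglecf, -0.039 to 0.078 for Siglech and -0.98 to -0.59 for Siglecg. Cd33 reversed only without responder 6 (-0.0061).

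Relative to Ptprc, the differences were -0.11 for Siglec1, 0.63 for Siglece, -0.53 for Cd33, 0.074 for Sirpa, -1.44 for Siglecf, -0.42 for Siglech (exact permutation p = 0.0238), -0.051 for Cd22 and -0.97 for Siglecg (exact permutation p = 0.0238). Siglecf relative to summed eosinophil CPM differed by -0.36. The cause of these changes was not tested. Siglecf rested on 6 to 54 counts per tumor. Each tumor came from a different mouse, so the groups were compared unpaired, and the replicate numbers are accession order only.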

Other observations

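Mag and Cd22 lie next to each other on chromosome 7, with 18833 bases between their annotated ends. Mag, a Siglec known from myelin-forming cells, was at 4.98 to 8.11 CPM in responders and 1.98 to 4.16 CPM in non-responders, so the groups did not overlap. After subtraction of group means, Mag and Cd22 correlated at r = 0.77 (rho = 0.62) over the 10 tumors, a description of libraries that share depth scaling.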
